A study of Homo sapiens with 2 samples.

Results

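The mitochondrial protein import machinery was followed in the tag counts of A549 cells, a human lung adenocarcinoma line. Its members were taken by symbol: every gene of the deposited table whose symbol starts with TIMM or TOMM, together with PMPCA, PMPCB, SAMM50, MTX1, MTX2, PAM16, DNAJC19, GFER and CHCHD4. This gave 29 of the 13137 genes. The rule goes by symbol and by no measured value, although it was written with earlier results of these data known. In bulk RNA of this kind, fewer cells that use a gene and less of its RNA per cell cannot be told apart.

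Both cell populations were polyclonal pools selected with puromycin after lentiviral infection, carried a doxycycline-inducible shRNA construct (H1TetO) and were collected after 4 days with doxycycline. One carried shRNA-SOX2, a hairpin against SOX2, and the other shRNA-Con, a scrambled sequence. Digital gene expression, in which mRNAs are counted by short sequence tags, was run on 1 library of each from 4 µg of total RNA. The value columns are headed SC and S1. The first was taken as shRNA-Con from its initials, and the other, being the one left, as shRNA-SOX2. In the sentences below that give a pair of values for a gene, shRNA-Con stands first and the library labelled shRNA-SOX2 second.

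Neither condition has a replicate, so no spread between cultures could be measured. The tags of each gene were therefore set against the remaining gene tags in Fisher's exact test (two-sided), adjusted by Benjamini-Hochberg over all 13137 genes and called at the study's FDR of 0.001. This compares the libraries and not the conditions, and intervals cover counting error only. The gene tags numbered 2304184 and 2093816, and ratios below are of shares of these totals, shRNA-SOX2 over shRNA-Con. For SOX2 itself there were 16 and 23 tags, which is a ratio of 1.58 with an interval of 0.800 to 3.20 (adjusted p = 0.333, Fisher's exact test), so a fall of the targeted mRNA was not seen and the label could not be checked by it. Epithelial keratins were abundant, with 7702 and 12729 tags for KRT8 and 10318 and 7887 for KRT18. KRT8 was called higher (log2 ratio 0.86) and KRT18 lower (-0.25). KRT7, with 3899 and 1606 tags, had the largest change of these markers and was also called lower (log2 ratio -1.14). CDH1 had 50 and 50 tags and EPCAM 8 and 4. Of 8 markers of other cell types 3 were measured, among which PTPRC (immune) had 2 and 2 tags, PECAM1 (endothelial) 3 and 0, and COL1A1 (fibroblast) 44 and 43.

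Nearly all mitochondrial proteins are made in the cytosol and imported. The TOM complex of the outer membrane recognises them and lets them through. From there, proteins with a cleavable presequence pass the TIM23 complex of the inner membrane, are pulled into the matrix by a motor built around the chaperone mtHsp70, and are trimmed by the matrix processing peptidase. Carrier proteins of the inner membrane are instead escorted through the intermembrane space by the small TIM chaperones and inserted by TIM22. Barrel proteins are placed in the outer membrane by the SAM complex, and the CHCHD4 and GFER relay folds small cysteine-rich proteins by oxidation.

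The small TIM chaperones share a sequence feature that the choice by name did not use: in each, cysteines stand in 2 motifs with 3 residues between them, the substrate of the CHCHD4 relay. The coding stretches of both motifs are shown for the 5 chaperones that the rule found, since these moved in different directions. They were read in frame from GENCODE release 29 transcripts (GRCh38, 5′ to 3′, all on the minus strand), and capitals mark the cysteine codons. The first TIMM8A motif is interrupted by an intron between exons 1 and 2, so its span on chromosome X, 101346652 to 101348538, includes that intron.
TIMM8A, motif 1: TGTtgggagaagTGC
TIMM8A, motif 2 (chrX:101346595-101346609): TGTtttgtgaacTGC
TIMM8B, motif 1 (chr11:112085427-112085441): TGTtgggataaaTGT
TIMM8B, motif 2 (chr11:112085370-112085384): TGTctctccagcTGT
TIMM9, motif 1 (chr14:58410882-58410896): TGCtttttggacTGT
TIMM9, motif 2 (chr14:58409148-58409162): TGTtcagaacatTGC
TIMM10, motif 1 (chr11:57528891-57528905): TGCcaccggaagTGT
TIMM10, motif 2 (chr11:57528828-57528842): TGCctggaccgaTGT
TIMM13, motif 1 (chr19:2427295-2427309): TGTttccggaagTGT
TIMM13, motif 2 (chr19:2427029-2427043): TGCatcgccatgTGC

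The import genes did not move as one block. Of the 29, 5 were called lower in the library labelled shRNA-SOX2 (PAM16, TIMM17A, TIMM9, TIMM10 and TOMM20), 4 were called higher (TIMM22, PMPCB, TIMM8B and MTX2) and 20 were not called. Their Entrez Gene IDs are 51025 for PAM16, 10440 for TIMM17A, 26520 for TIMM9, 26519 for TIMM10, 9804 for TOMM20, 29928 for TIMM22, 9512 for PMPCB, 26521 for TIMM8B and 10651 for MTX2. Over all genes 12.2% were called lower and 9.53% higher. The import genes were counted more deeply than most: 28 of them had at least 20 tags in the libraries together, with a median of 317 against 143 over the 10045 genes with that many. Among those 10045, 15.8% were called lower and 12.2% higher, against 17.9% and 14.3% of the 28. On gene tags the counts of calls were thus near the background, which was matched only by the minimum of 20 tags and not by depth. The median log2 ratio of the 28 was -0.17, with the middle 50% between -0.58 and 0.39. That of the 10045 genes was -0.10, with the middle 50% between -0.62 and 0.44. Among genes with at least 100 tags the medians were -0.22 for import genes and -0.13 for all genes. Only PAM16 was lower by a log2 ratio of 1 or more, a size that 13.0% of the 10045 genes had, and only TOMM40L, with 20 tags in all and not called, was higher by as much, against 10.4%.

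These calls depend on how the libraries are scaled and on the spread assumed between cultures. With the clean tags of the whole libraries as totals, the scale of the authors' TPM, 3 import genes were called higher and 10 lower. Over all 13137 genes that scale gave 1008 higher and 2010 lower calls. The lower calls were thus a larger share of the 29 import genes than of all genes. The import genes were counted more deeply than most, and calls on clean tags were not counted over genes of similar depth. The larger share can therefore not be told apart from an effect of depth. With edgeR's TMM factors 5 import genes were called higher and 5 lower, against 1414 and 1381 over all genes. The same scalings moved the calls over all genes: 56.1% of them were lower on gene tags, 66.6% on clean tags and 49.4% with TMM factors. Fisher's test takes the spread between cultures as 0. When a coefficient of variation of 0.1 was assumed in edgeR's exact test, PAM16 alone of the import genes was called (adjusted p = 1.24e-05). That setting called 1166 of all genes. With 0.2 no import gene was called, against 113 of all genes, and PAM16 alone of the import genes had an unadjusted p under 0.05.

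**Figure D1:**
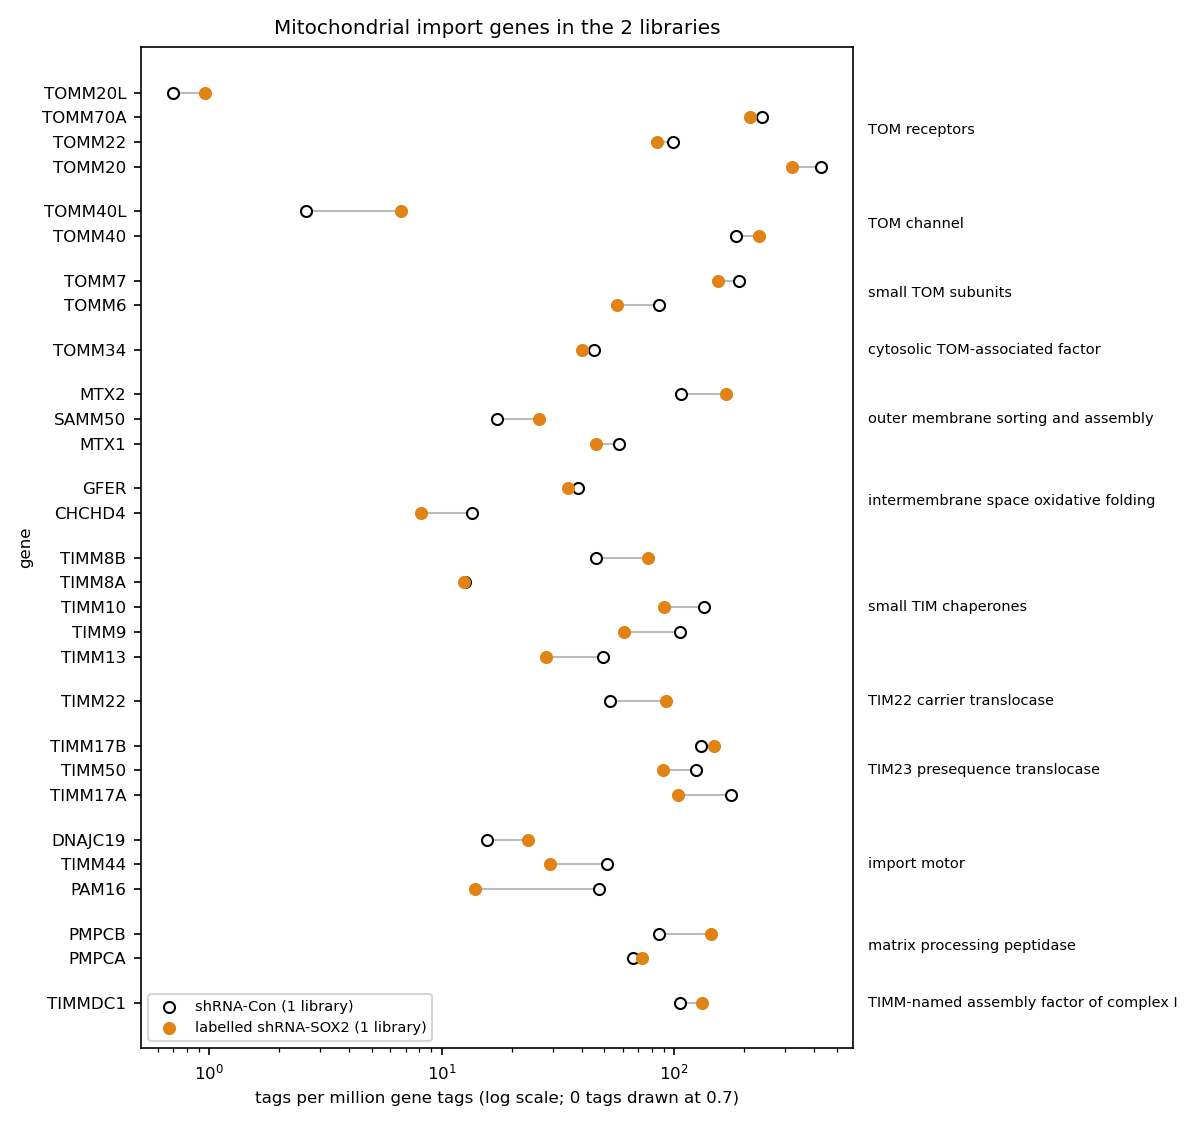
TPM on gene tags, the tags of a gene scaled to the gene tags of its library (log axis), of the 29 import genes, grouped by role, in 1 library of shRNA-Con (open circles) and 1 labelled shRNA-SOX2 (filled circles), with a line joining the values of a gene. The count of 0 for TOMM20L is drawn at the left edge of the points. PAM16 has the longest line, from 47.7 to 13.8, while the circles of TIMM8A nearly coincide at 12.6 and 12.4.

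At the entry gate of the outer membrane 1 of 4 receptor genes and neither of the channel genes was called. TOMM20, the receptor that binds presequences, was called lower, with 986 and 673 tags and a ratio of 0.751 (interval 0.680 to 0.829, adjusted p = 8.19e-08, Fisher's exact test). It was the only TOM subunit called on gene tags. TOMM22, the central receptor, had 227 and 177 tags, a ratio of 0.858 (0.701 to 1.05). TOMM70A, which receives carriers from cytosolic chaperones, had 993 tags in all, 444 of them in the library labelled shRNA-SOX2. Neither passed the threshold, with adjusted p-values of 0.244 and 0.147 (Fisher's exact test). The channel TOMM40 had 426 and 486 tags, a ratio of 1.26 (interval 1.10 to 1.43, adjusted p = 0.00260, Fisher's exact test), which missed the threshold. With TMM factors or the median ratio it was called. TOMM6 and TOMM7, small subunits that stabilise the complex, had 199 and 119 tags and 440 and 322 tags. Their ratios of 0.658 and 0.805 did not pass with gene tags and did with clean tags. TOMM34, a cytosolic factor that works with chaperones, had 104 and 84 tags. The TOMM40L and TOMM20L genes, relatives of TOMM40 and TOMM20, had 6 and 14 tags and 0 and 2 tags. No difference was detectable at that depth, where the interval of the TOMM40L ratio ran from 0.927 to 8.15.

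In the SAM branch MTX2, a metaxin on the cytosolic face of the complex, was called higher, with 246 and 351 tags and a ratio of 1.57 (interval 1.33 to 1.86, adjusted p = 3.96e-07, Fisher's exact test). Its partner MTX1 had 134 and 97 tags, a ratio of 0.797 (0.607 to 1.04, adjusted p = 0.196, Fisher's exact test). The barrel subunit SAMM50 had 40 and 55 tags, and its interval of 0.989 to 2.33 included 1. Neither gene of the oxidative relay was called, and CHCHD4 was thinly counted. The oxidoreductase CHCHD4 had 31 and 17 tags (ratio 0.604, 0.313 to 1.13) and its reoxidising partner GFER 89 and 73 (ratio 0.903, 0.653 to 1.24), with adjusted p-values of 0.210 and 0.658 (Fisher's exact test).

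The small TIM chaperones, whose cysteine motifs are given above, went both ways. TIMM9 and TIMM10, which form 1 hexamer together, were both lower in the library labelled shRNA-SOX2. TIMM9 had 245 and 127 tags, a ratio of 0.570 (0.457 to 0.710, adjusted p = 1.43e-06, Fisher's exact test). TIMM10 had 310 and 190, a ratio of 0.674 (0.560 to 0.811, adjusted p = 9.51e-05, Fisher's exact test). TIMM13 had 114 and 59 tags, a ratio of 0.570 (0.409 to 0.787) that did not reach the threshold (adjusted p = 0.00184, Fisher's exact test). TIMM8A, the partner of TIMM13 in the other hexamer and the gene mutated in a deafness-dystonia syndrome, had 29 and 26 tags, and its ratio of 0.987 had a wide interval, 0.558 to 1.74. Its relative TIMM8B was higher, with 106 and 162 tags and a ratio of 1.68 (1.31 to 2.17, adjusted p = 1.62e-04, Fisher's exact test), a call that was lost with clean tags. TIMM22, the channel to which these chaperones deliver carriers, had 122 and 194 tags, a ratio of 1.75 (1.39 to 2.21, adjusted p = 7.76e-06, Fisher's exact test). The channel was thus called higher in the same libraries in which the TIMM9 and TIMM10 chaperones were called lower.

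On the presequence route, TIMM17A, a subunit of the TIM23 channel, was called lower, with 404 and 217 tags and a ratio of 0.591 (0.499 to 0.699, adjusted p = 2.63e-09, Fisher's exact test). Its relative TIMM17B had 300 and 310 tags, a ratio of 1.14 (0.967 to 1.34, adjusted p = 0.214, Fisher's exact test). TIMM50, the receptor of the complex, had 286 and 187 tags and a ratio of 0.719 (adjusted p = 0.00195, Fisher's exact test), not past the threshold. No gene was listed under the symbols TIMM23, TIMM23B or TOMM5, so these were not analysed here.

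The largest difference among the called import genes was in the motor. PAM16, a J-like protein that holds the J-protein DNAJC19 at the channel and restrains it, was at 110 tags in shRNA-Con and 29 in that labelled shRNA-SOX2, a ratio of 0.290 (0.186 to 0.440, adjusted p = 8.90e-10, Fisher's exact test). If the columns were read the wrong way round, the ratio would be 3.45. DNAJC19, which stimulates mtHsp70, had 36 and 49 tags (adjusted p = 0.139, Fisher's exact test). TIMM44, which anchors mtHsp70 to the channel, had 119 and 61 tags, and its ratio of 0.564 was the nearest of all import genes to the threshold from outside (adjusted p = 0.00108, Fisher's exact test). Together the 3 motor genes held 265 and 139 tags. Of the matrix processing peptidase at the end of this route, 1 of 2 subunits was called. The catalytic subunit PMPCB had 198 and 302 tags, a ratio of 1.68 (1.40 to 2.02, adjusted p = 1.05e-07, Fisher's exact test), and PMPCA, which binds the presequence, had 153 and 152, a ratio of 1.09 (0.868 to 1.38, adjusted p = 0.602, Fisher's exact test). TIMMDC1, which carries the TIMM name but assembles complex I, had 244 and 276 tags (adjusted p = 0.0388, Fisher's exact test).

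**Figure D2:**
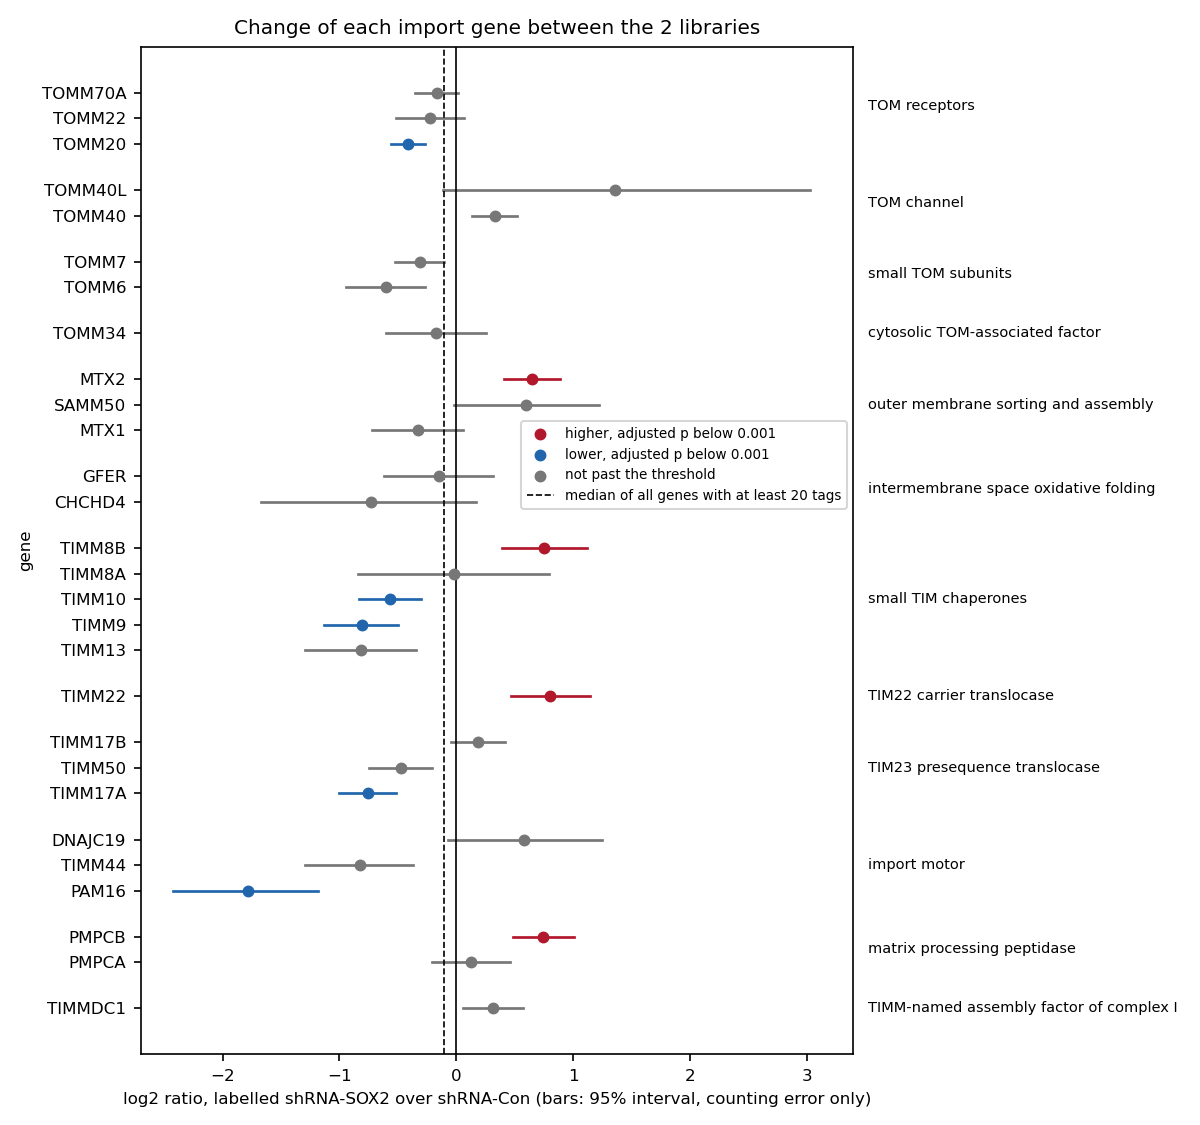
Log2 ratio of each import gene with at least 20 tags, shRNA-SOX2 over shRNA-Con, with bars for the 95% interval from counting error. Red marks the 4 genes called higher, blue the 5 called lower and grey those not called, the solid line is no difference and the dashed line is the median of the 10045 genes, -0.10. PAM16 lies farthest to the left at -1.78, and called genes of both directions occur among the small TIM chaperones.

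The ratio of 2 genes within a library does not depend on how the libraries are scaled. It was compared for 8 pairs of partners or relatives, with p-values from two-sided Fisher's exact tests adjusted over the 8 pairs. In 2 pairs the balance differed past 0.001. Each of these holds a gene already called above, TIMM17A or MTX2, so its counts are not separate from that call. No pairs of other genes were run as a background. TIMM17A made up 57.4% of the TIMM17A and TIMM17B tags in shRNA-Con (95% Clopper-Pearson interval 53.6% to 61.1%) but 41.2% in that labelled shRNA-SOX2 (36.9% to 45.5%, adjusted p = 1.72e-07, Fisher's exact test). These intervals do not overlap. MTX1 made up 35.3% of the metaxin tags in shRNA-Con (30.5% to 40.3%) and 21.7% in the other library (17.9% to 25.8%, adjusted p = 7.12e-05, Fisher's exact test).

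The other 6 pairs did not pass 0.001. PMPCA made up 43.6% of the peptidase tags in shRNA-Con but 33.5% in that labelled shRNA-SOX2, an odds ratio of 0.652 with an interval of 0.484 to 0.877 (adjusted p = 0.0113, Fisher's exact test). TIMM9 made up 44.1% and 40.1% of the tags of the TIMM9 and TIMM10 hexamer. The odds ratio was 0.846 with an interval of 0.632 to 1.13, so that no shift in the balance of these chaperones was detectable at this depth. TOMM20 made up 81.3% and 79.2% of the TOMM20 and TOMM22 tags, with an odds ratio of 0.875 (0.699 to 1.10). The intervals were wide for TIMM8A against TIMM8B, with an odds ratio of 0.588 (0.313 to 1.10), for CHCHD4 against GFER, with 0.670 (0.320 to 1.36), and for TOMM40 against TOMM40L, with 0.489 (0.153 to 1.37).

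**Figure D3:**
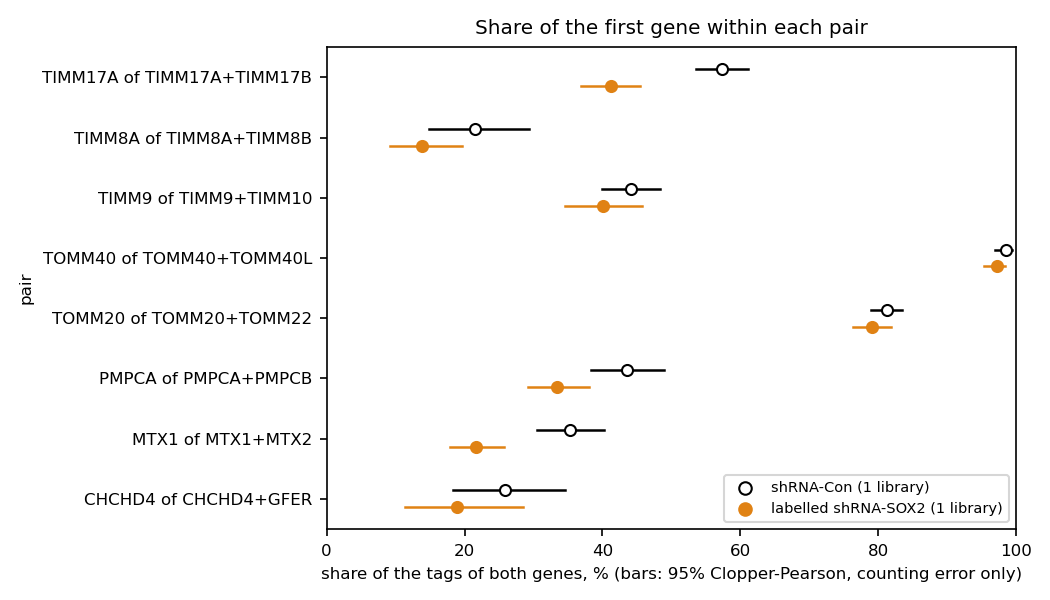
Share of the first gene in the tags of both genes of a pair, in percent, with 95% Clopper-Pearson intervals, in 1 library of shRNA-Con (open circles) and 1 labelled shRNA-SOX2 (filled circles). The intervals are apart for TIMM17A with TIMM17B, for MTX1 with MTX2 and, narrowly, for PMPCA with PMPCB, and overlap for the other 5 pairs.

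Of 41 further genes of the route that the rule for names leaves out, 7 were called lower and 4 higher, and their median log2 ratio was -0.20 over the 39 with at least 20 tags, against -0.10 over all genes. Of these 39, 17.9% were called lower and 10.3% higher, near the 15.8% and 12.2% of all genes with as many tags. HSPA9, the mtHsp70 at the centre of the motor, fell from 1981 tags in shRNA-Con to 510 in that labelled shRNA-SOX2, which is -1.82 on the log2 scale. This was close to that of PAM16, -1.78. AGK, a lipid kinase that is also a TIM22 subunit, fell from 132 tags to 41 (-1.55), while TIMM22 was higher. OXA1L, which inserts proteins from the matrix side, fell from 350 to 187 (-0.77), and ROMO1, a small protein of the TIM23 complex, rose from 1144 to 1590 (0.61). Adjusted p-values of these 4 lay between 9.50e-172 for HSPA9 and 2.75e-08 for OXA1L (Fisher's exact test). HSPA9 and AGK, with adjusted p-values of 4.91e-14 and 4.77e-05, also passed 0.001 in edgeR's exact test when a coefficient of 0.1 was assumed, and OXA1L and ROMO1 did not. GRPEL1, the exchange factor of mtHsp70, had 58 and 62 tags and its relative GRPEL2 52 and 20, and neither was called.

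Among the 41 were 3 TIM subunits that stood in the table under older symbols and so outside the rule. TIMM29, a TIM22 subunit (listed as C19orf52), had 41 and 64 tags. TIMM21, of the TIM23 complex (C18orf55), had 101 and 66, and TIMM10B, a small TIM of the TIM22 complex (FXC1), had 60 and 48. None of the 3 was called.

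Another 18 of the 41 were clients of the oxidative relay, proteins with paired CX9C cysteine motifs that CHCHD4 and GFER fold. They held 3 of the 4 higher and 4 of the 7 lower calls. These are 16.7% and 22.2% of the 18, against 12.2% higher and 15.8% lower of all genes with at least 20 tags. COX6B1, a subunit of cytochrome oxidase, rose from 1384 tags to 3449 (log2 ratio 1.46), and TRIAP1, a carrier of phosphatidic acid between the membranes, from 175 to 382 (1.26). CHCHD2, a regulator of respiration, fell from 592 to 243 (-1.15) and CHCHD3, which shapes the cristae, from 356 to 165 (-0.97). Further genes were described by list, beside the same 15.8% lower and 12.2% higher of all genes. Of 39 SLC25A carriers, taken by name and not checked singly as clients of TIM22, 1 was called higher and 4 lower. Their median log2 ratio was -0.28 over the 33 with 20 tags or more (3.03% called higher, 12.1% lower). For the 76 mitochondrial ribosomal proteins, which reach the matrix by TIM23, the median was -0.21 over 75 genes, with 4 called higher (5.33%) and 17 lower (22.7%). Of 41 NDUF-named genes, taken by name and not checked singly as parts of complex I, 13 were called higher and 11 lower. The lower ones included NDUFA4L2 with 18 and 0 tags. Over the 40 with at least 20 tags, which leave NDUFA4L2 out, the median was 0.01, with 32.5% called higher and 25% lower. In this list 3 genes, NDUFB7, NDUFS5 and NDUFA8, are also among the CX9C proteins. The median of the import genes, -0.17, lay between those of the NDUF-named genes and the mitochondrial ribosomal proteins. No difference between these lists was tested.

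**Figure D4:**
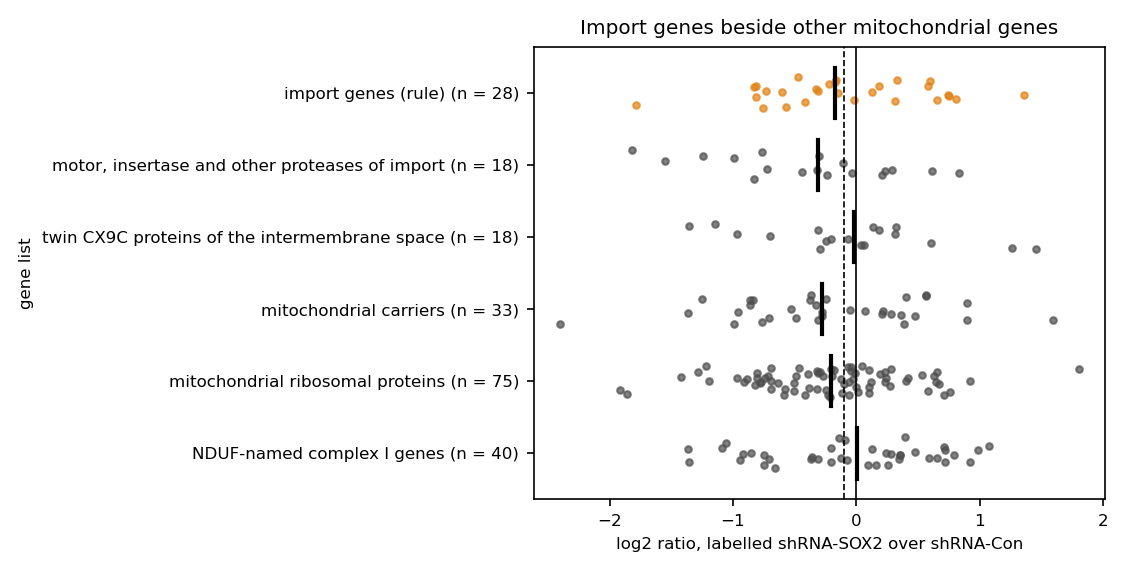
Log2 ratio, shRNA-SOX2 over shRNA-Con, of single genes (points) with at least 20 tags in 6 lists, with a bar at each median and the median of the 10045 genes as a dashed line. Each list spreads to both sides of 0, and the import genes run from -1.78 to 1.36.

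Windows from 250 bases before to 50 bases after the start, from RefSeq (GRCh38.p14), were found for 28 of the 29 genes, all but TIMM8B, and were searched on both strands. CCGGAAG, the core bound by ETS factors such as GABP that serve many mitochondrial genes, was in 10 of the 28, against 21.8% of the 10533 genes of the table with a window. TGCGCA, the repeated unit of the NRF1 site, was in 7 of the 28, against 15.8%. TGATGNAAT, the element bound by ATF4 with a C/EBP partner, was in 1, that of PMPCB, against 0.769%. CATTGT, the core bound by SOX factors, was in 0 of the 28, against 9.09%. These are matches of letters in this window and say nothing of binding. Of the called genes with a window, CCGGAAG was in 2 of the 5 lower and in 2 of the 3 higher, and TGCGCA in 2 of the 5 and 1 of the 3.

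Matches that lie before the start are shown for called genes of both directions, as stretches of 30 bases from 5′ to 3′ on the gene's strand with the match in capitals. The match of the ATF4 element lies at the far end of the window.
PAM16, lower (TGCGCA; chr16:4351349-4351378, minus): gactgaggcaaTGCGCAtgcccagcgccgt
TOMM20, lower (TGCGCA; chr1:235128921-235128950, minus): gcttcgcccacTGCGCAggcgcaggagccg
TOMM20, lower (CCGGAAG; chr1:235128841-235128870, minus): gttgactgggaCCGGAAGtggcgtgtgctc
TIMM10, lower (CCGGAAG; chr11:57530755-57530784, minus): gaggcgggactttcctcCCGGAAGtaaccc
TIMM10, lower (CCGGAAG; chr11:57530791-57530820, minus): ggtatttaattCCGGAAGcgagtttgaatc
TIMM22, higher (TGCGCA; chr17:996985-997014, plus): tctcgctggtgTGCGCAccaggagcgttgc
PMPCB, higher (CCGGAAG; chr7:103297405-103297434, plus): tcaggtcgcgaccCCGGAAGcacatccttc
PMPCB, higher (ATF4 element; chr7:103297185-103297214, plus): ATTGCATCAggttacctttcattccaccgc

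Some of these counts could hold tags of other loci, and how shared tags were counted is not given in the sources used here. RefSeq names 40 pseudogenes after 14 of the 29 genes, among them 4 each for TOMM20 and TOMM40, 6 for TOMM22, 9 for DNAJC19 and 3 for TIMM9. In the same annotation 16 of the genes overlap another gene, such as the readthrough gene CORO7-PAM16 for PAM16, PSMC2 and DNAJC2 for PMPCB, ABR for TIMM22 and TOMM20L for TIMM9. The part of shared tags in the differences was not tested.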

How the data were processed

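Oligo(dT)-selected mRNA of doxycycline-treated A549 cells was profiled by digital gene expression at the Beijing Genomics Institute, 1 library per condition. The authors deposited tag counts per Entrez Gene ID, not normalised, and TPM, the counts scaled to the clean tags of the library, with 0 written as 0.01. The submitters' processing notes name the build hg19, while the aligner and annotation are not given in the sources used here. The deposited log2 ratios, p-values and FDR compare the libraries and were not used. Clean tags, from counts over TPM, were 3516267 for shRNA-Con and 3456233 for shRNA-SOX2, of which 65.5% and 60.6% were on listed genes. Rows without a symbol held 0.0535% and 0.0372% of the gene tags.

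Log2 ratios were computed on shares of gene tags, with counts below 3 set to 3. A count of 0 allows up to 1.30e-04% of the gene tags in shRNA-Con and 1.43e-04% in shRNA-SOX2, from 3 tags. Intervals of shares are 95% Clopper-Pearson intervals. Fisher's exact test was run on all 13137 genes, and medians used genes with at least 20 tags. Python 3.11.15, scipy 1.17.1, R 4.3.3, edgeR 4.0.16 and DESeq2 1.42.0 were used, and the steps were tested on simulated data. Every gene found by the rule was named, with fold changes for those called or in a pair, and the other genes of the route were named from those called or listed under older symbols, at most the 8 with the smallest p. GRPEL1, GRPEL2 and the ratios of other uncalled genes were added after their values were seen. The members and lists were chosen with earlier results of these data known, and the motifs after seeing the results. Alternatives were other scalings, filters, tests, thresholds and assumed spreads.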

Additional observations from a re-analysis of the deposited data

How the results depend on the processing

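No paired analysis was possible because shRNA-Con and shRNA-SOX2 were each measured once, which also leaves no library to drop. The number of import genes called, 9 with 4 higher and 5 lower, was 10 by the Audic and Claverie test, on genes with at least 10 tags, and with TMM factors or the median ratio. With clean tags it was 13, and the lower calls went from 5 to 10 by adding TIMM13, TIMM44, TIMM50, TOMM6 and TOMM7. Over all genes the lower calls went from 1597 to 2010 with clean tags. With an assumed coefficient of variation of 0.1 it was 1 (0 higher, 1 lower), and with 0.2 or 0.4 it was 0, in each direction 0. Over all genes 2849 calls became 1166 with 0.1, 113 with 0.2 and 0 with 0.4. With 0.2, 2481 of all genes and 1 import gene, and with 0.4, 627 of all genes and 1 import gene had an unadjusted p under 0.05 in edgeR's exact test. At FDR 0.05, 16 import genes were called, 10 of them lower, and with a log2 ratio of at least 1 in size 1 was (0 higher, 1 lower). Calls over all genes were not counted at these thresholds, so neither number can be set against a background. The 11 calls among other genes of the route (4 higher, 7 lower) fell to 0 in both directions with an assumed coefficient of 0.2. These losses follow from the spread or size required, and no replicate shows which spread applies. The median log2 ratio of the import genes was -0.28 with clean tags, where that of all genes was -0.22. With TMM factors it was -0.10, where that of all genes was -0.03. A scaling adds the same amount to every log2 ratio, so both medians had to move alike. TIMM8A, at -0.02 with gene tags, was 0.053 with TMM factors and 0.051 with the median ratio. Depth limits CHCHD4, TIMM8A, TOMM40L and TOMM20L, with 2 to 55 tags each.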
